A study of Mus musculus with 2 samples.

Results

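Mir143 and Mir145a are a pair of neighbouring microRNA genes known from smooth muscle. They were chosen by name, as the rows of the count tables whose Ensembl identifiers carry those symbols in the GENCODE annotation of the GRCm38 mouse assembly. They are 2 of 1973 microRNA genes measured, and 2 of the 363 that had at least 10 counts in both libraries, a level called detected here. Small RNA came from the intestine of B6NCrl mouse embryos at 14.5 days of development, in 2 libraries that form the single group of the study, biological replicates 1 and 2. The labels name no genotype or treatment, and they describe each sample as an intestine from 1 pup while giving the sex as pooled. Both samples carry the same donor, pup and pregnancy number but different collection dates, so how far the replicates are independent is not settled by the labels, and each SD below describes the spread of these 2 libraries only. Replicate 1 was collected on a day numbered 17 and replicate 2 on a day numbered 15 of the same month, and this day cannot be told apart from the replicate. All p-values below compare these libraries and nothing beyond them.

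A microRNA is processed from a hairpin in a longer transcript and lowers the output of target messenger RNAs, which it recognises through a seed near its 5′ end. Mir143 and Mir145a are made from a shared primary transcript under the control of serum response factor and its cofactor myocardin, which drive the contractile genes of smooth muscle. In mice, miR-143 and miR-145 repress factors that keep smooth muscle cells immature and proliferating, such as Klf4 and Elk1, along with regulators of the actin cytoskeleton. In the gut they are expressed by the muscle layers and other mesenchymal cells, and the midgestation embryo is the period in which intestinal muscle forms.

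Levels of the pair were set against microRNAs known from proliferating smooth muscle and against microRNAs of the gut epithelium, and the mature sequences of 5 of these genes, the leading proliferation gene and a seed-sharing pair from each list, are shown for identity, with the seed (bases 2 to 8) in capitals. Mir21a, Mir221 and Mir222 are linked to smooth muscle proliferation, and Mir221 and Mir222 carry the same seed. Mir192 and Mir215, of intestinal epithelium, carry another seed in common. The sequences are those of RefSeq for GRCm38.p6, and the count tables do not separate the arms of a hairpin.
miR-21a-5p: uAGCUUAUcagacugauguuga
miR-221-3p: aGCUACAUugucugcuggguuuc
miR-222-3p: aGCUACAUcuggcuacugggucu
miR-192-5p: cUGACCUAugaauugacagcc
miR-215-5p: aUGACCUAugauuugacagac

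By reads assigned to a single gene, Mir143 was the most abundant microRNA gene of the embryonic intestine in both libraries. Reads with several alignments, 26.5% of all reads in replicate 1 and 26.6% in replicate 2, were assigned to no gene. Genes whose hairpins share sequence with others may therefore be undercounted, and the rank and share of Mir143 hold for assigned reads only. Mir143 (ENSMUSG00000065445.2) had 2534571 counts on its own strand in replicate 1 and 570083 in replicate 2. Scaled to 1000000 counts on gene strands (CPM), replicate 1 had 167962 CPM and replicate 2 had 146045 CPM, with a mean of 157004 ± 15498 CPM (SD, n = 2). The library totals were 15090126 and 3903472 counts, so the replicate 1 value rests on 3.87 times more reads. The 95% Wilson interval of the share was 16.78 to 16.82% of the counts in replicate 1 and 14.57 to 14.64% in replicate 2. The intervals do not overlap, and they cover counting error only, since PCR copies cannot be told from separate molecules in these tables.

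Among assigned reads, Mir143 stood well clear of the gene that followed it. Mir10a, of the Hoxb cluster, reached 65360 CPM (replicate 1) and 58872 CPM (replicate 2), so that Mir143 exceeded it 2.57-fold and 2.48-fold. Mir335, in the imprinted gene Mest, ranked next at 50707 CPM in replicate 1 and 54949 CPM in replicate 2. The order of these 3 genes was the same in both libraries, and the lower value of Mir143 lay far above the higher value of either other gene. It took 4 further genes in replicate 1, and 3 in replicate 2, to reach the count of Mir143 alone. From the other end of the order, the counts of the 707 least abundant of 751 genes with any count in replicate 1 summed to no more than Mir143. In replicate 2 this held for 576 of 628 genes. Mir143 made up 33.4% of the counts of the 10 leading genes in replicate 1 and 30.7% in replicate 2.

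Mir145a, the partner gene, stood far below Mir143 but above most microRNA genes, and was nearly equal in the 2 libraries. Mir145a (ENSMUSG00000065592.1) had 53819 counts in replicate 1 and 14041 in replicate 2, or 3566 CPM (0.357% of counts, Wilson interval 0.354 to 0.360%) and 3597 CPM (0.360%, 0.354 to 0.366%). The mean was 3582 ± 21.6 CPM (SD, n = 2), a coefficient of variation of 0.603% against 9.87% for Mir143. The gene ranked 51st of all genes in replicate 1 and 54th in replicate 2. Its level was 101 times the median of genes with at least 10 counts in replicate 1, and 27.2 times that median in replicate 2.

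Around that rank the genes lay close together. Mir351, of an X-linked cluster, stood above Mir145a in both libraries, at 3881 CPM in replicate 1 and 4158 CPM in replicate 2. Mir324 had 3534 and 3752 CPM and changed places with Mir145a between the libraries, so these neighbours did not differ beyond their spread. Mir215, an epithelial microRNA, also changed places with it, at 2933 CPM in replicate 1 and 3954 CPM in replicate 2. Mir145a exceeded Mir92-1, of the Mir17hg transcript, 1.08-fold in replicate 1 and 1.00-fold in replicate 2, a gap in means of less than the SD of Mir92-1 (3450 ± 189 CPM, n = 2). Mir92-1 shares sequence with another hairpin, so its own level is uncertain.

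**Figure D1:**
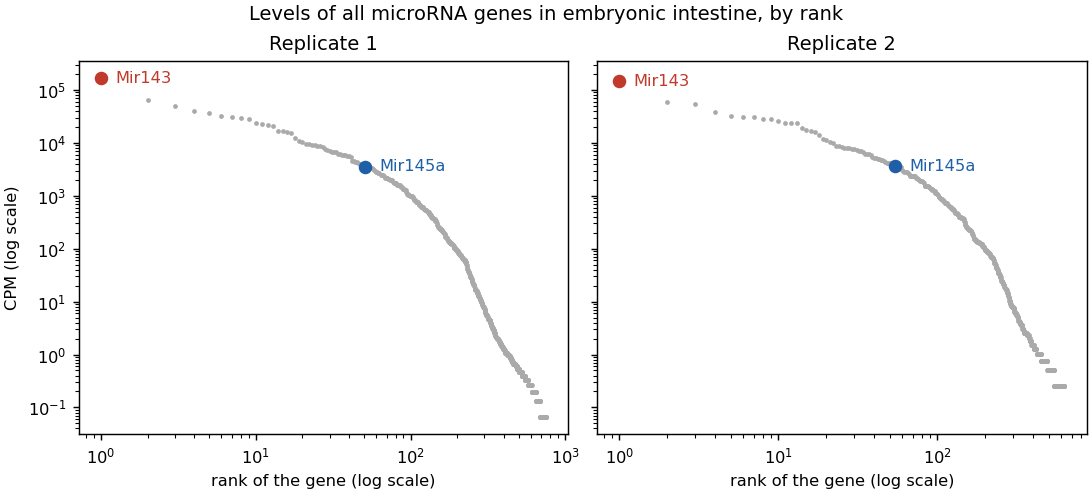
CPM of each gene with a count (vertical axis, log scale) against its rank (horizontal axis, log scale) in replicate 1 and replicate 2; each grey point is a gene. Mir143 leads both libraries at 167962 and 146045 CPM, and Mir145a lies at ranks 51 and 54.

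The genes of the pair differed in level far more than either differed between the libraries. Mir143 exceeded Mir145a 47.1-fold in replicate 1 (95% exact counting interval 46.7 to 47.5) and 40.6-fold in replicate 2 (39.9 to 41.3). On the log2 scale the ratios were 5.56 and 5.34, a mean of 5.45 ± 0.15 (SD, n = 2). Mir145a thus gave 2.08% of the pair's counts in replicate 1 and 2.40% in replicate 2. Together the genes held 17.2% of all counts in replicate 1 and 15.0% in replicate 2, or 16.1 ± 1.55%. These are counts of different microRNAs, whose ligation and amplification can differ, so the ratio is one of counts and not of molecules.

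The ratio itself differed between the libraries by more than counting error. It was 1.16-fold higher in replicate 1 than in replicate 2, a log2 difference of 0.21 (95% interval 0.19 to 0.24; two-sided Fisher's exact test of the 2 genes in the 2 libraries, p = 1.53e-52). The ratio within a library does not depend on the library total. In bulk tissue, a change in the number of cells that express a microRNA and a change in its amount per cell cannot be told apart.

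Between the libraries, Mir143 differed and Mir145a did not pass the test. Mir143 was 1.15-fold higher in replicate 1 than in replicate 2, a log2 difference of 0.20 with a 95% counting interval of 0.198 to 0.206. It passed a two-sided exact binomial test whose p-values were adjusted (Benjamini-Hochberg) over all 363 detected genes. So did 43.8% of those genes, 14.0% higher and 29.8% lower in replicate 1, and a call for 1 of 2 members is therefore close to the background. The log2 difference of Mir145a was -0.01 (interval -0.04 to 0.01, adjusted p = 0.512 by the exact binomial test), and its sign was positive under other totals, including those of edgeR's TMM factors (0.06) and DESeq2's size factors (0.05), with which it passed the test.

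Set among all genes, neither difference was large. The median absolute log2 difference was 0.15 over the detected genes and 0.12 over the 102 genes with a mean of at least 1000 CPM. Of the detected genes, 147 differed more than Mir143 in absolute terms and 14 differed less than Mir145a. Among the 102 abundant genes, 22 differed more than Mir143 in either direction, and 5 were higher in replicate 1 by a larger margin. The median log2 difference of the detected genes was -0.06, so that Mir143 lay above most of them.

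**Figure D2:**
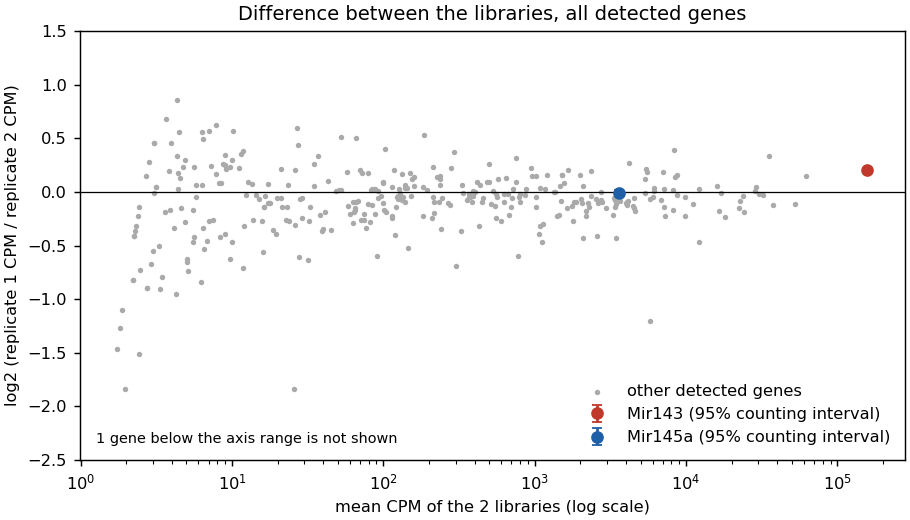
Log2 of replicate 1 over replicate 2 (vertical axis) against mean CPM (horizontal axis, log scale) for detected genes; grey points are single genes, and the bars on Mir143 and Mir145a are 95% counting intervals, which are smaller than the symbols. Mir143 lies at 0.20 and Mir145a at -0.01, while 1 gene at -6.42 falls below the range of the axis.

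The genes nearest to the members in this difference were found among those with at least 1000 CPM, by the absolute gap between log2 differences over the 2 libraries. For Mir143 these were Mir872 (log2 difference 0.20), Mir27b (0.20) and Mir379 (0.21), of which Mir27b shares sequence and has an uncertain level. For Mir145a they were Mir17 (-0.02), Mir181d (-0.01) and Mir99b (-0.01). With 2 libraries, one number describes each gene, and many genes share nearly the same value by this measure.

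Mir143 and Mir145a lie next to each other on chromosome 18. In GRCm38 the Mir143 hairpin spans 61649196 to 61649258 and the Mir145a hairpin 61647825 to 61647894, both on the minus strand, with 1301 bases between them and Mir143 first in the direction of transcription. The annotated hairpin lengths were 63 bases for Mir143 and 70 for Mir145a. These positions come from GENCODE release M21, in which both identifiers have a later version than in the count tables. No other gene of that annotation overlaps either hairpin on its strand. Carmn, a long non-coding RNA gene of heart and smooth muscle, ends 366 bases upstream of Mir143 there (61649625 to 61665537, minus strand), whereas the RefSeq interval of Carmn on the same assembly (61645878 to 61665538) covers both hairpins. Bvht, a long non-coding RNA gene known from mouse heart development, lies 352 bases beyond Mir145a on the opposite strand (61639542 to 61647472).

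Sense reads made up all counts of the pair. The opposite strand held 0 counts at Mir143 and 0 at Mir145a in both libraries. The exact 95% upper bound on the opposite-strand share in replicate 1 was 0.000146% for Mir143 and 0.00685% for Mir145a.

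The pair made up nearly all microRNA counts of chromosome 18. Of 50 genes measured on that chromosome, 5 were detected, and the pair held 99.9% of the counts in each library. The next gene was Mir187, with 132 and 136 CPM in replicates 1 and 2, and then Mir122, the liver microRNA, with 39.8 and 51.0 CPM. Because of Mir143, chromosome 18 led all chromosomes, at 17.2% of the counts in replicate 1 and 15.0% in replicate 2, ahead of chromosome 2 at 10.5 and 9.82%.

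Mir145b, a gene with a related name elsewhere on chromosome 18 (69022199 to 69022273), was at the limit of detection. It had 3 counts in replicate 1 and 0 in replicate 2, where 0 counts leave room for up to 0.769 CPM (3 counts of the library total). Its hairpin shares an identical stretch of at most 17 bases with that of Mir145a, the longest that Mir145a shares with any annotated microRNA hairpin. For Mir143 the longest such stretch was 11 bases, with Mir5106. Neither member therefore met the length of 20 identical bases used here to mark genes whose reads may align to several places. The members share at most 5 bases in a row with each other.

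The hairpins of both genes were shorter than the median. Against a median of 84 bases and 50.5% G and C over the 363 detected genes, Mir143 had 55.6% and Mir145a 48.6%. The predicted folding energy per base was -0.586 kcal/mol for Mir143 and -0.433 kcal/mol for Mir145a, with a median of -0.434 kcal/mol. These are predictions for the annotated hairpins.

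Neighbouring microRNA genes often differ in level, and the gap within the pair was wider than in most such sets. Detected genes that follow each other on the same strand at gaps of up to 10 kb formed 43 sets with 153 genes. By the ratio of the most to the least abundant gene, the pair ranked 18th, with 17 sets wider and 25 narrower, and the median set had a 15.1-fold range against 43.7-fold for the pair. Of the 17 wider sets, 14 held a gene that shares sequence with another locus and whose level is uncertain. Among the 20 sets with no such gene the pair ranked 4th, and the median range was 7.80-fold. Among the 28 sets of exactly 2 genes it ranked 9th, with a median of 10.4-fold.

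The widest set, of 11 genes, ran from Mir127 to Mir3070a, at 3459-fold. Mir3070a shares sequence and had only 47 counts in replicate 1 and 10 in replicate 2, so this range is uncertain. The narrowest set was Mir181c and Mir181d, at 1.15-fold. The sets closest to the pair were Mirlet7b with Mirlet7c-2 (37.9-fold), in which a gene shares sequence, and Mir130b with Mir301b (53.3-fold). The pair's ratio changed between the libraries by 0.21, against a median absolute log2 change of 0.20 over the 43 sets, and 19 sets changed more. The 43 sets include those with a gene of uncertain level. They also include sets with few counts, such as Mir293 with Mir292 (change 1.23), where Mir292 had 34 and 14 counts. The median therefore holds counting error that is small for the pair.

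**Figure D3:**
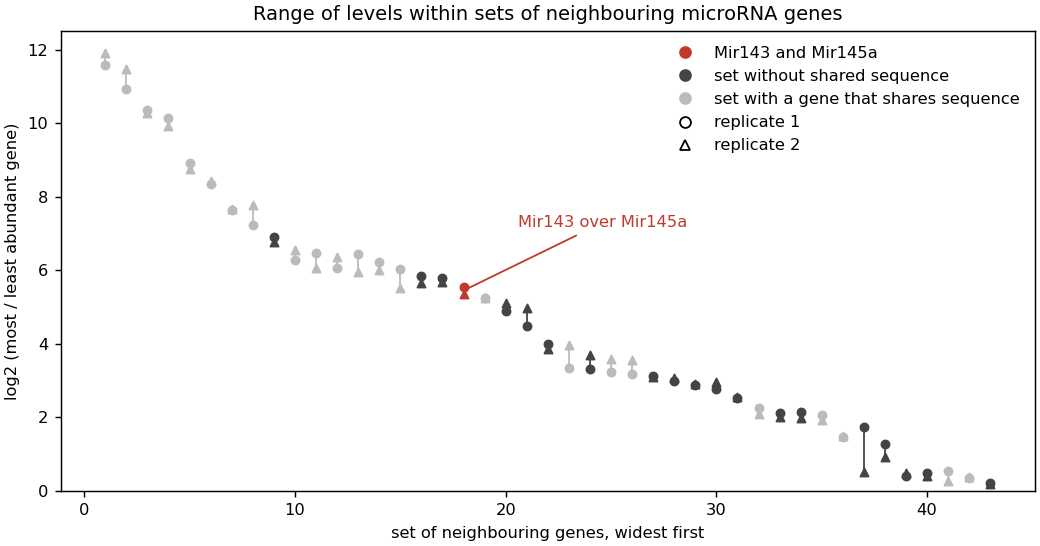
Log2 of the most over the least abundant gene (vertical axis) for 43 sets of neighbouring microRNA genes, ordered from widest to narrowest (horizontal axis), with circles for replicate 1 and triangles for replicate 2. The pair ranks 18th at 5.56 and 5.34, and pale symbols mark sets with a gene whose sequence occurs at another hairpin.

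The pair exceeded every other list of cell type or smooth muscle microRNAs examined, in both libraries. This rests on Mir143, which gave 97.9% of the pair's counts. Mir145a alone held 0.357% in replicate 1 and 0.360% in replicate 2. In both libraries it lay below the miR-200, endothelial, smooth muscle proliferation, mesenchymal, gut epithelial and endocrine lists, and above the remaining lists. The list of other microRNAs linked to smooth muscle differentiation also held Mir145b, a gene of related name, which had 3 and 0 counts. Of the 6 genes listed, 5 were measured and 1, Mir204, was detected, at 13.1 CPM in replicate 1 and 12.3 CPM in replicate 2. Mir1a-1 had 5 and 2 counts, Mir133a-1 had 0 in both, and Mir133a-2 had 1 and 0 counts. These genes, known from heart and skeletal muscle too, share sequence with other loci, and reads that align to several places were assigned to no gene, so their low counts are uncertain. Mir1a-2 was not analysed here.

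Among microRNAs linked to smooth muscle proliferation, all 7 measured genes were detected, and the pair exceeded their sum 9.46-fold in replicate 1 and 7.12-fold in replicate 2. Mir21a carried 91.3% of that sum, with 16517 CPM in replicate 1 and 19391 CPM in replicate 2, below Mir143 and above Mir145a. Mir221 stood at 545 CPM in replicate 1 and 456 CPM in replicate 2. Its cluster neighbour Mir222 had 226 and 241 CPM, so both stood below Mir145a. Mir31 had 623 and 724 CPM. Mir24-2 (149 ± 12.8 CPM), Mir26a-2 and Mir26a-1 share sequence, and their levels are uncertain. Mir24-1 was not analysed here.

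Markers of striated muscle were near the limit of the data. The 8 measured genes summed to 501 counts in replicate 1 and 124 in replicate 2, or 0.00332% and 0.00318% of the total, and the pair exceeded them 5166-fold and 4711-fold. Mir208b, in a cardiac myosin gene, led them with 255 and 71 counts, and Mir206, of skeletal muscle, had 159 and 35. Of these 8 genes, 4 share sequence and may have lost reads, so the ratio may be too high.

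The miR-200 family came closest to the pair. These genes, whose products restrain the epithelial to mesenchymal transition, summed to 3.50% of the counts in replicate 1 and 4.29% in replicate 2, and the pair exceeded it 4.90-fold and 3.49-fold. The gut epithelial list of Mir192, Mir194-1, Mir194-2 and Mir215 gave 0.898% and 1.14%. Mir194-1 and Mir194-2 share sequence. The mesenchymal genes of the miR-199 and miR-214 loci, in which 3 of 4 genes share sequence, gave 0.971% in replicate 1 and 1.12% in replicate 2, and the pair exceeded them 17.7-fold and 13.4-fold. Endothelial Mir126a, a marker of the vessels whose walls also hold smooth muscle, gave 2.35% and 2.42%, 7.31-fold and 6.19-fold under the pair.

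Other cell types gave lower sums. The endocrine list, mostly Mir375, summed to 0.363% in replicate 1 and 0.827% in replicate 2, so that the pair exceeded it 47.3-fold in replicate 1 alone and 18.1-fold in replicate 2 alone, against a mean of 29.2-fold. The neuronal list, mostly Mir137, summed to 0.205% and 0.232%. Of the other neuronal genes, Mir9-3 had 80 counts in replicate 1 and 30 in replicate 2, while Mir9-2 and the 3 copies of Mir124a had at most 1 count, and all of these share sequence. Leukocyte, erythroid and liver lists held between 0.00398% and 0.0557% of the counts in either library. Mir142, of the leukocyte list, and Mir9-1, of the neuronal list, were not analysed here, so these sums lack them. The ratio of the pair to each of the 12 lists was higher in replicate 1 than in replicate 2. All 12 ratios hold the same Mir143 count and so do not form separate evidence. The summed shares of 10 of the 12 lists, epithelial, endocrine and erythroid genes among them, were higher in replicate 2, where Mir143 was lower. The exceptions were the smooth muscle differentiation and striated muscle lists, which have genes in common. Over all detected genes the median log2 of replicate 1 over replicate 2 was -0.06, so most genes were also higher in replicate 2. The part of the lists in the difference of Mir143 was not tested.

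**Figure D4:**
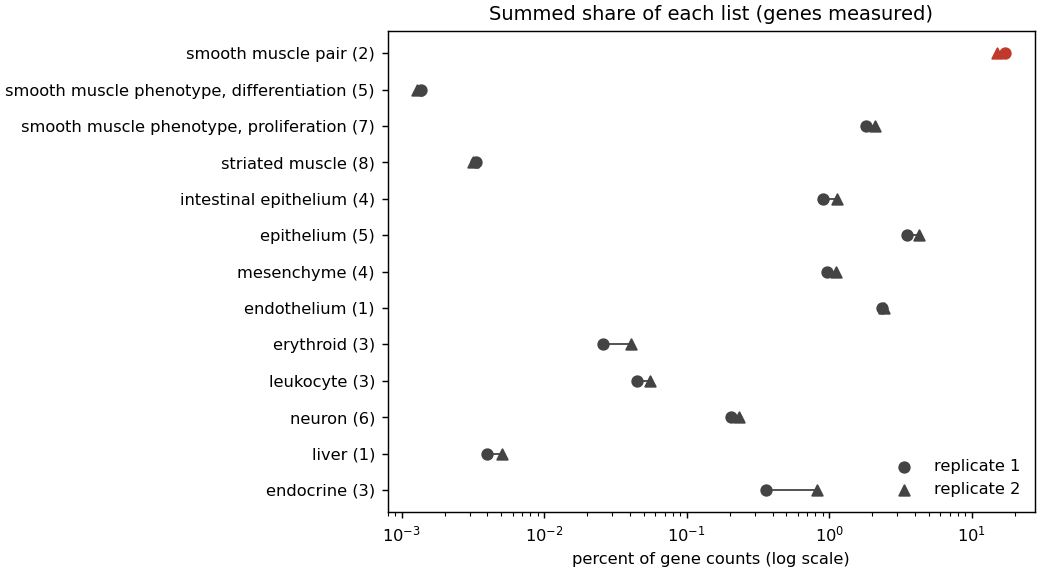
Percent of gene counts (horizontal axis, log scale) held by each list (vertical axis, with the number of genes measured), with circles for replicate 1 and triangles for replicate 2. The pair holds 17.2 and 15.0%, above the next list, the miR-200 family, at 3.50 and 4.29%.

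Because Mir143 takes so large a part of the total, it lowers the CPM of every other gene. With Mir143 left out of the totals, other genes stood 1.20-fold higher in replicate 1 and 1.17-fold higher in replicate 2. Mir145a then reached 4286 CPM in replicate 1 and 4212 CPM in replicate 2. The difference between libraries shifted by 0.04 on the log2 scale for every other gene, and the sign changed for 19 of the 362 other detected genes, Mir145a among them.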

How the data were processed

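The authors deposited a table of raw read counts for each library, with columns for both strands, for the sense strand and for the antisense strand of each gene. The meaning of these columns was read from the values. The genome was mm10 and the gene annotation GENCODE M4, per the file headers that accompany the tables. Aligner, trimming and counting program are not given in the sources used here. Rows that name no gene held 41.1% of all reads of the table in replicate 1 and 42.5% in replicate 2. They entered no total, except where all reads of the table are named as the total. Reads with several alignments alone were 26.5% and 26.6% of all reads.

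Sense counts were divided by their sum over 1973 gene rows. Names and positions came from GENCODE M21 (1894 identifiers matched). Genes were tested with an exact binomial test (scipy 1.17.1) at an adjusted p of 0.05 over 363 detected genes, after a test on simulated data. The simulated counts varied by counting error only, so that trial does not cover other variation between libraries. Normalization alternatives used edgeR 4.0.16 and DESeq2 1.42.0, and folding used RNAfold 2.7.2. Named were the members, Mir145b, genes adjacent in rank, genes nearest in library difference, leading or smooth muscle genes of the lists, and the widest, narrowest and nearest neighbour sets. Other genes were named after their values were seen. The members and lists were chosen with earlier results of these data known.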

Additional observations from a re-analysis of the deposited data

How the results depend on the processing

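With all reads of the table as the total, the mean levels were 88775 CPM for Mir143 and 2023 CPM for Mir145a, and the pair's share was 9.08%. With both strands counted, Mir143 had 152318 CPM, Mir145a had 3475 CPM, and the pair's share was 15.6%. Neither member had counts on the opposite strand, so only the total changed. The log2 difference of Mir145a between the libraries, -0.01 as reported, was 0.026 with all reads as the total (adjusted p = 0.119 by the exact binomial test), 0.025 with Mir143 left out of the total, 0.055 with TMM factors (adjusted p = 0.000191) and 0.045 with DESeq2 size factors (adjusted p = 0.00287). Over all 7 alternatives its adjusted p ran from 0.000191 to 0.727, while the difference of Mir143 ran from 0.20 to 0.27 and passed the test under each. After removal of genes with shared sequence, the log2 ratio of the pair to the intestinal epithelial list was 4.56, against 3.99. Leaving genes out of a list can only raise this ratio, so the value does not show what reads lost from those genes would change. The percent of neighbour sets narrower than the pair was 59.5, and was 60.5 with both strands counted, 70.2 with neighbours joined within 2 kb and 71.1 with at least 100 counts in both libraries. Replicate 2 is the shallower library. With a single library in place of the mean, the log2 ratio of the pair to the endocrine list was 4.18 without replicate 1 and 5.56 without replicate 2, against 4.87, a change of over 1.5 times in the ratio. No paired analysis was possible because the study has 1 group.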
